A study of Mus musculus with 12 samples.

Results

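The negative feedback inhibitors of the ERK pathway were described in ATDC5 cells, a mouse line derived from a teratocarcinoma that can be driven to form cartilage. The set was made of 10 genes, *Dusp1*, *Dusp4*, *Dusp5*, *Dusp6*, *Spry1*, *Spry2*, *Spry4*, *Spred1*, *Spred2* and *Spred3*, taken by symbol from the 46731 genes of the table. All 10 genes were found. RNA was sequenced from 12 libraries, 3 biologically independent replicates for each of 4 groups. Both lines were stable lines made with a lentivirus that also carries puromycin resistance. The control line (shRNA-NC) expressed a nontargeting hairpin from the U6 promoter, and the knockdown line (shRNA-*Ddx5*) expressed a hairpin against *Ddx5*, an RNA helicase. Each line was kept for 6 h in medium alone or with TNF-α (25 ng/ml) added together with IL-1β (5 ng/ml), called cytokines below. A single hairpin and a single stable line stood for the knockdown, so that effects of the line and of *Ddx5* loss cannot be told apart. The set was chosen by the measured differences between these groups, so that its values are given as a description and without p-values.

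ERK is the last kinase of a chain in which growth factor receptors, Ras, Raf and MEK pass a signal to the nucleus. Active ERK switches on genes whose products shut the chain off again. The dual-specificity phosphatases (DUSPs) remove phosphate from MAP kinases, while Sprouty and Spred proteins act farther upstream at the receptors, Ras and Raf. Their transcripts are therefore commonly read as a record of recent ERK output. In cartilage, FGF signaling through ERK restrains the growth of chondrocytes, and IL-1β and TNF-α activate ERK together with JNK, p38 and NF-κB. ERK activity itself was not measured in these libraries.

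The unit was FPKM, fragments scaled by gene length and by library depth. The libraries held 14119199 to 19276520 fragments on genes, and libraries of the same group correlated at 0.973 to 0.993 (log2 values over genes). The shallowest library was shRNA-NC replicate 3, which also lay farthest from its group mean. *Ddx5* had a mean of 319 FPKM in shRNA-NC and 103 FPKM in shRNA-*Ddx5* cells in medium (32.3% of the control), and 310 and 99.5 FPKM with cytokines (32.1%). Of the 8 chondrocyte markers examined, only *Sox9*, *Sox5* and *Col2a1* reached a mean of 1 FPKM in any group, and *Acan*, the main proteoglycan of cartilage, had at most 4 fragments in a library. The summed markers were 39.1 to 44.4 FPKM in shRNA-NC and 26.0 to 29.9 in shRNA-*Ddx5* cells in medium, and 12.9 to 18 and 7.12 to 7.89 with cytokines. The 6 fibroblast markers, which include *Col1a2* and *Vim*, summed to 2007 to 2502 FPKM in shRNA-NC and 3239 to 3451 in shRNA-*Ddx5* cells in medium, and to 1320 to 1519 and 2194 to 2493 with cytokines. Within that sum the named markers went opposite ways in medium, where *Col1a2* had 492 to 512 FPKM in shRNA-NC and 1678 to 1774 in shRNA-*Ddx5* cells, and *Vim* had 1480 to 1961 and 1181 to 1301. The 4 leukocyte markers summed to 2.10 FPKM at most, nearly all of it *Cd68*, with *Ptprc* at 0 fragments in every library. The 4 endothelial markers reached 0.151 FPKM and the 4 epithelial markers 0.188 FPKM in any library, with *Cdh5* and *Epcam* at 0 fragments. The part of these differences in state in the results on the inhibitors was not tested.

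The promoters of *Dusp5*, *Dusp6* and *Spry2* are shown because these genes had the largest rises with cytokines in shRNA-NC cells among the inhibitors tested, and they differed in what the knockdown left of that rise. The sequences run from 250 bases before to 50 bases after the start, come from RefSeq in the build GRCm38.p6, and are printed 5′ to 3′ on the strand of the gene. They lie at chr19:53528895-53529194 on the plus strand (*Dusp5*), chr10:99262981-99263280 on the plus strand (*Dusp6*) and chr14:105896770-105897069 on the minus strand (*Spry2*). Capitals mark matches, on either strand, to CGTCA (part of the cyclic AMP response element), CCGGAA (the core bound by ETS factors), TGANTCA (AP-1), GGGNNTTNC (the start of an NF-κB site) and the core of the serum response element.
Dusp5: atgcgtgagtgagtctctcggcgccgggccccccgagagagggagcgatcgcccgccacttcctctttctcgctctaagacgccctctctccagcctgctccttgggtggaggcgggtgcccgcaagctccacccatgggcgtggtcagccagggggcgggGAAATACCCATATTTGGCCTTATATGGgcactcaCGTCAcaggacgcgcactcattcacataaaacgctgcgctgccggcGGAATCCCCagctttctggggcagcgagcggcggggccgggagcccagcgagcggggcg
Dusp6: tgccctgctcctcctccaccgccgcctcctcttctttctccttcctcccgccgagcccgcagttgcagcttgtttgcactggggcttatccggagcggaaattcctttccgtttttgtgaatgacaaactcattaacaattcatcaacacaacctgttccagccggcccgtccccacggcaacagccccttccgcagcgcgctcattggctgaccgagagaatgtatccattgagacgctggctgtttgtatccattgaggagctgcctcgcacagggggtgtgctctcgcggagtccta
Spry2: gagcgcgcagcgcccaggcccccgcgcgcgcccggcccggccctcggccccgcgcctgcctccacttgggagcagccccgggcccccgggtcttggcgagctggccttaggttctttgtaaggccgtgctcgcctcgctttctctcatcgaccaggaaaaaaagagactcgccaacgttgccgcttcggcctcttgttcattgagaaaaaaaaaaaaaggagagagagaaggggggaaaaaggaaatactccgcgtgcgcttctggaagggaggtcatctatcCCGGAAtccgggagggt

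In the *Dusp5* promoter, 2 cores of the serum response element lay in tandem, from 82 to 73 and from 72 to 63 bases before the start. The first of them shared its opening bases with the end of a match to the NF-κB pattern, and a separate CGTCA lay from 55 to 51 bases before the start. A core of the serum response element was held by 1.63% of the 32851 mouse promoters in the table, and by *Dusp5* alone among the 8 inhibitors with a promoter there. The promoter of *Dusp6* held no match to any of these patterns. *Spry2* held a single ETS core, after its start, and 14.9% of all promoters held this pattern. CGTCA was found in 3 of the 8 (*Dusp1*, *Dusp5* and *Spred2*) and in 20.8% of all promoters. The NF-κB pattern was found in 2 of the 8 (*Dusp5* and *Spry1*) and in 15.2% of all promoters, while no inhibitor held the AP-1 pattern, which was in 7.81% of all promoters. A pattern that can form a G-quadruplex, the kind of structure that DDX5 can unwind, was found in *Dusp1*, *Spry2*, *Spred1* and *Spred3* and in 18.6% of all promoters. G and C made up 67%, 62.7%, 72.3% and 55% of these promoters, against a median of 52.7% over all promoters. The share over all promoters was not matched for this. These matches describe letters in a window and no binding was measured.

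Cytokines raised most of the inhibitors in the control line, and *Dusp5* and *Dusp6* came to dominate the set. In shRNA-NC cells the 10 genes summed to 42.9, 42.5 and 46.1 FPKM in replicates 1 to 3 in medium and to 153, 111 and 114 FPKM with cytokines. In shRNA-*Ddx5* cells the sums were 30.2, 29.6 and 30.5 FPKM in medium and 39.6, 42.1 and 39.4 FPKM with cytokines. The control line with cytokines thus stood alone, and no other library exceeded 46.1 FPKM. *Dusp5* and *Dusp6* made up 38.7% and 24.2% of the sum in the control line with cytokines, against 5.44% and 16.2% in the knockdown line with cytokines, where *Dusp1* (39.1%) and *Spred1* (27.4%) were the larger parts. In these bulk libraries fewer cells with a transcript and less transcript per cell cannot be told apart.

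**Figure D1:**
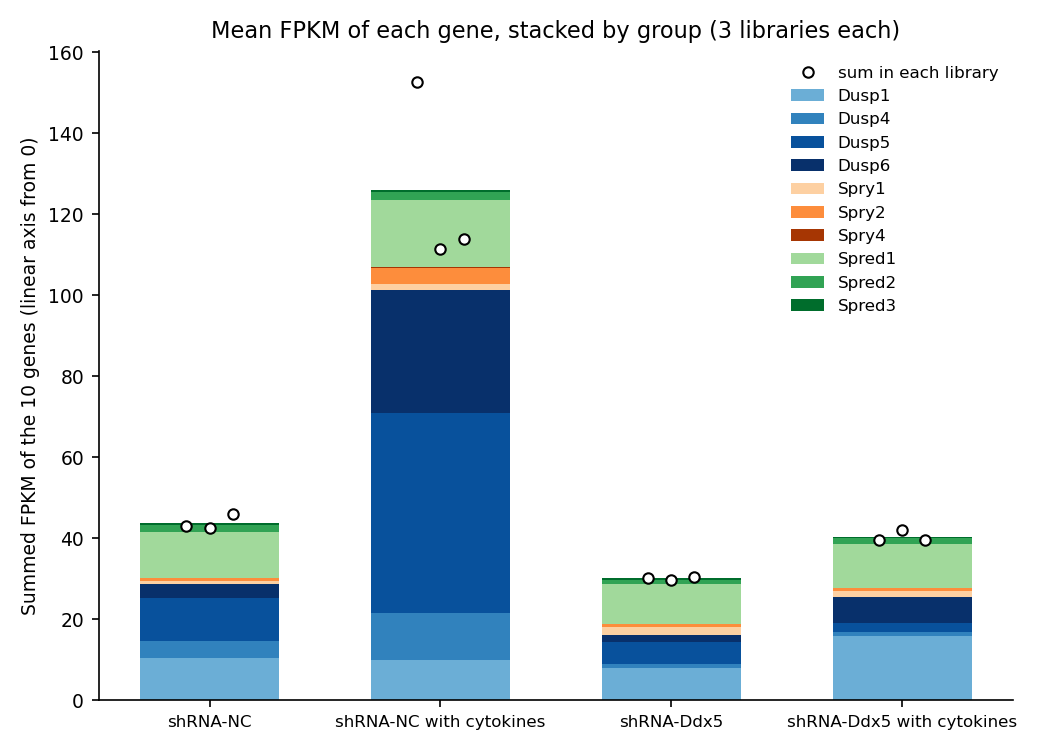
Mean FPKM of each of the 10 ERK feedback inhibitors, stacked for each group of 3 libraries on a linear axis, with an open circle for the sum in each library. The control line with cytokines reached 111 to 153 FPKM, and the other 9 libraries stayed between 29.6 and 46.1 FPKM.

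Of the 10 inhibitors, 8 passed the filter for testing (at least 1 FPKM in at least 3 libraries), as did 12368 genes in all. *Spry4* and *Spred3* never reached 1 FPKM and were not tested. *Spry2* passed only through its 3 libraries of the control line with cytokines, so that its presence among the tested genes already required a difference. Differences are given as the log2 difference of FPKM + 1 with its standard error, from a single limma fit over all 12 libraries, and "rose" and "fell" are used for genes with an adjusted p under 0.05 in that fit. This scale understates the change of genes near or under 1 FPKM.

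*Dusp5*, a nuclear phosphatase that acts on ERK, showed the widest range in FPKM. In shRNA-NC cells it had 10.5, 10.1 and 11.6 FPKM in replicates 1 to 3 in medium and 64.2, 39.2 and 44.3 FPKM with cytokines. In shRNA-*Ddx5* cells it had 5.49, 4.52 and 6.05 FPKM in medium and 2.00, 2.46 and 2.13 FPKM with cytokines. No library of any group overlapped with another group, and the direction of the cytokine response was opposite in the 2 lines. *Dusp5* rose 4.59-fold with cytokines in the control line (log2 difference 2.07, SE 0.16) and fell to 41.0% of its level in medium in the knockdown line (log2 difference -0.99, SE 0.16). With cytokines the knockdown line held 4.46% of the *Dusp5* of the control line (log2 difference -3.95, SE 0.16), against 49.9% in medium. The gene (240672 in the table) lies at chr19:53517576-53530240 on the plus strand in GRCm39, the build of the table's coordinates, and it is the gene whose promoter held the tandem serum response elements shown above.

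*Dusp6*, the cytoplasmic phosphatase that is selective for ERK, kept a rise in both lines. Its values were 3.59, 3.23 and 3.38 FPKM in shRNA-NC cells in medium and 36.0, 28.4 and 26.7 FPKM with cytokines. In the knockdown line they were 1.53, 2.03 and 1.88 FPKM in medium and 6.49, 6.53 and 6.54 FPKM with cytokines. All 4 groups were separate, and the 3 knockdown libraries with cytokines were nearly identical. The rise was 8.93-fold in the control line (log2 difference 2.82, SE 0.11) and 3.59-fold in the knockdown line (log2 difference 1.42, SE 0.11). The knockdown line held 53.4% of the control in medium and 21.5% with cytokines. *Dusp6* lies at chr10:99098676-99103351 on the plus strand, and the noncoding gene on its other strand, *Gm34921*, had at most 1 fragment in a library.

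*Dusp4*, a nuclear phosphatase of ERK, JNK and p38, responded in the control line and stayed near 1 FPKM in the knockdown line. In shRNA-NC cells it had 4.68, 4.34 and 3.40 FPKM in medium and 13.4, 10.3 and 11 FPKM with cytokines, a rise of 2.80-fold (log2 difference 1.29, SE 0.12). The knockdown line had 1.2, 1.23 and 0.937 FPKM in medium and 1.05, 1.04 and 1.02 FPKM with cytokines, and these groups overlapped (log2 difference -0.06, SE 0.12). The knockdown line thus held less *Dusp4* than the control already in medium (27.1%), and 8.91% of it with cytokines. *Dusp4* lies at chr8:35274764-35287048 on the plus strand.

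*Dusp1*, a phosphatase that prefers p38 and JNK and is induced by many stresses, went the other way. It had 9.72, 10.1 and 11.2 FPKM in shRNA-NC cells in medium and 10.5, 10.1 and 9.23 FPKM with cytokines, which overlapped (log2 difference -0.05, SE 0.11), and the sign of this small difference turned without replicate 3 of either group (0.0057 and 0.0014). With the knockdown it had 9.33, 6.82 and 7.46 FPKM in medium and 15.3, 17.5 and 14.7 FPKM with cytokines. It rose 2.01-fold there (log2 difference 0.93, SE 0.11), to 159% of the control line with cytokines (log2 difference 0.61, SE 0.11). In medium *Dusp1* fell to 76.0% of the control with the knockdown (log2 difference -0.36, SE 0.11), a call that was lost without shRNA-NC replicate 3 (-0.31), shRNA-*Ddx5* replicate 2 (-0.28) or shRNA-*Ddx5* replicate 3 (-0.33), and when only the 6 libraries of the contrast were fitted. *Dusp1* lies at chr17:26724565-26727446 on the minus strand.

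**Figure D2:**
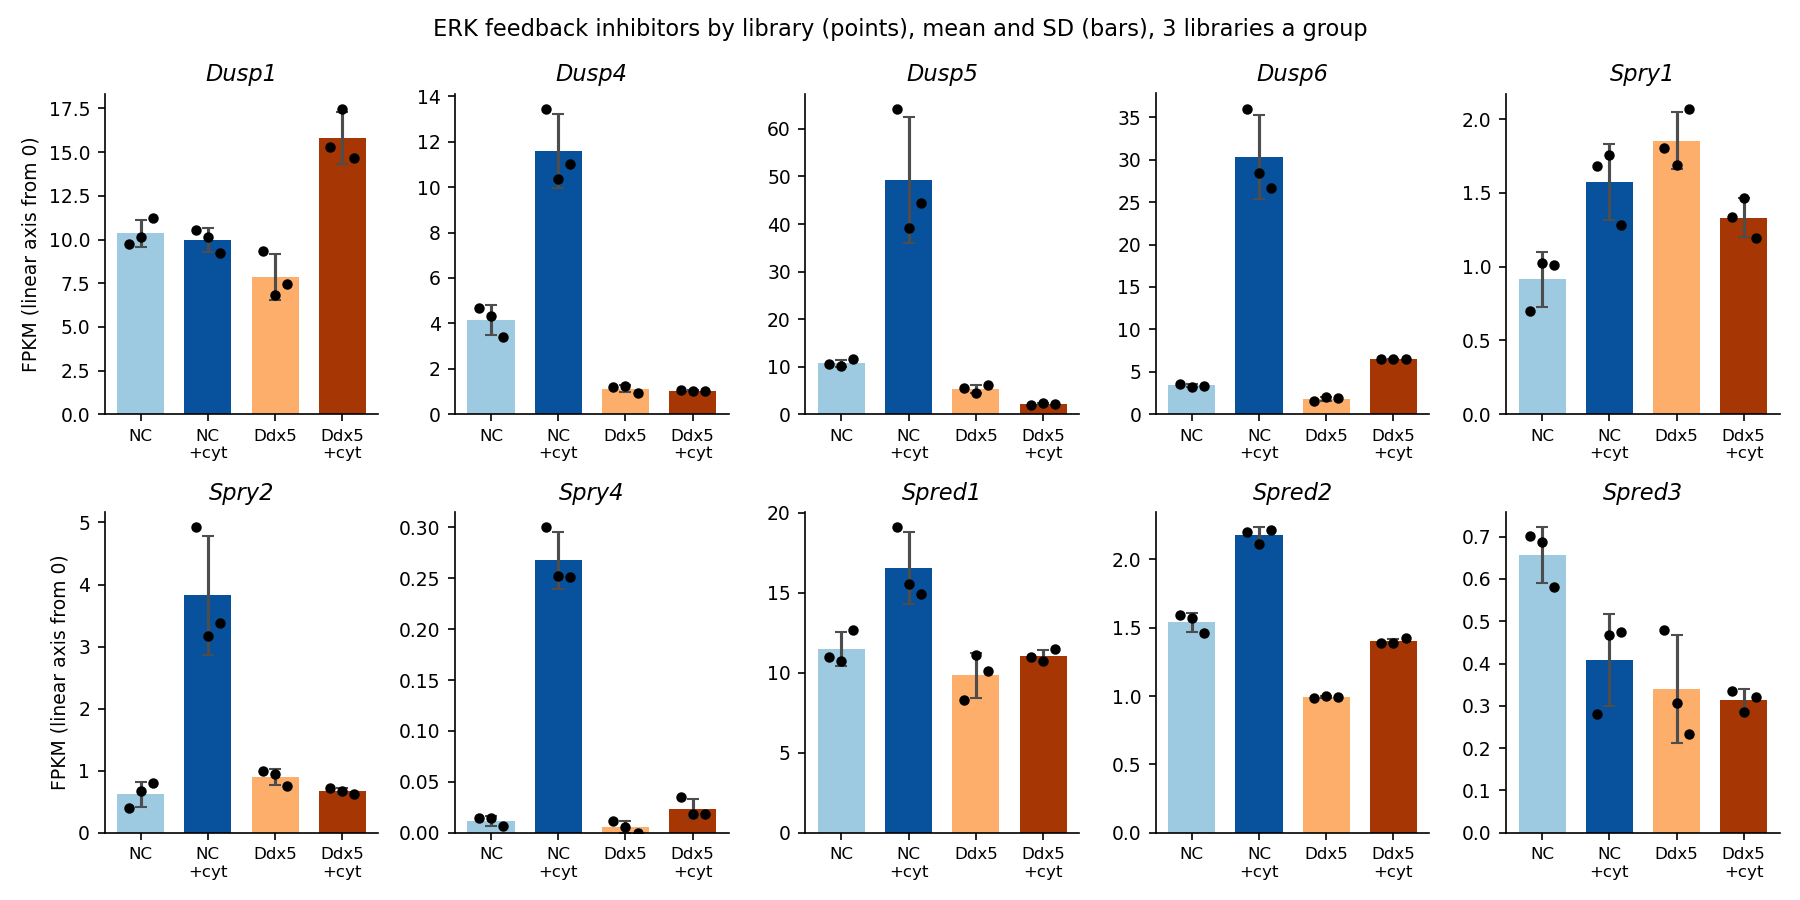
FPKM of each of the 10 genes in the 12 libraries (points), with the mean (bar) and SD (line) of each group of 3, on linear axes that differ between panels. "NC" is shRNA-NC, "Ddx5" is shRNA-*Ddx5* and "+cyt" is with cytokines. *Dusp4*, *Dusp5*, *Dusp6*, *Spry2* and *Spry4* were highest in the control line with cytokines, while *Dusp1* was highest in the knockdown line with cytokines, at 14.7 to 17.5 FPKM.

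Of the Sprouty genes, which restrain receptor signaling upstream of Raf, *Spry2* and *Spry4* were highest in the control line with cytokines. *Spry2* had 0.404, 0.666 and 0.794 FPKM in shRNA-NC cells in medium and 4.92, 3.17 and 3.38 FPKM with cytokines, a rise of 6.16-fold (log2 difference 1.56, SE 0.14). The values of the knockdown line were 1.00, 0.948 and 0.750 FPKM in medium and 0.722, 0.680 and 0.629 FPKM with cytokines (log2 difference -0.18, SE 0.14, not past the threshold). Every library of the control line with cytokines was above 3 FPKM and every other library was near or under 1 FPKM, and with cytokines the knockdown line held 17.7% of the control's *Spry2*. *Spry2* lies at chr14:106129381-106134899 on the minus strand, and the gene annotated on its other strand had no fragment.

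*Spry4* was at the floor of detection in medium. The control line had 3, 3 and 1 fragments in medium and 52, 49 and 49 fragments with cytokines (0.3, 0.252 and 0.251 FPKM). The knockdown line had 2, 1 and 0 fragments in medium and 6, 3 and 3 fragments with cytokines. The 3 control libraries with cytokines stood far above the other 9. Pooled over libraries and scaled by depth, the ratio of cytokines to medium was 22.1 in the control line (95% exact interval 10.5 to 55.9) and 4.36 in the knockdown line (1.18 to 24.1). The knockdown line with cytokines held 0.0900 of the control's rate (0.0455 to 0.162). These intervals cover counting error only.

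*Spry1* was low throughout and differed in another way. Its values were 0.701, 1.03 and 1.01 FPKM in shRNA-NC cells in medium and 1.68, 1.76 and 1.28 FPKM with cytokines, a rise of 1.72-fold (log2 difference 0.43, SE 0.11). In shRNA-*Ddx5* cells it had 1.80, 1.69 and 2.07 FPKM in medium and 1.33, 1.46 and 1.2 FPKM with cytokines (log2 difference -0.29, SE 0.11, not past the threshold). *Spry1* rose 2.03-fold with the knockdown in medium (log2 difference 0.58, SE 0.11), the only inhibitor that did, and with cytokines the 2 lines overlapped at 1.57 and 1.33 FPKM. It lies at chr3:37694096-37698748 on the plus strand, and a gene annotated on its other strand had 0 to 5 fragments.

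The Spred genes encode membrane proteins that bring neurofibromin to Ras. *Spred1* had 11, 10.8 and 12.7 FPKM in shRNA-NC cells in medium and 19.1, 15.5 and 14.9 FPKM with cytokines, a rise of 1.44-fold (log2 difference 0.49, SE 0.12). The knockdown line had 8.32, 11.1 and 10.1 FPKM in medium and 11, 10.7 and 11.5 FPKM with cytokines, which overlapped (log2 difference 0.16, SE 0.12). With cytokines the knockdown line held 66.9% of the control's *Spred1*, and in medium the lines overlapped. *Spred1* lies at chr2:116951552-117012760 on the plus strand.

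*Spred2* responded alike in size in both lines. It had 1.59, 1.57 and 1.46 FPKM in shRNA-NC cells in medium and 2.20, 2.11 and 2.22 FPKM with cytokines. With the knockdown it had 0.986, 1.00 and 0.991 FPKM in medium and 1.39, 1.39 and 1.42 FPKM with cytokines. All 4 groups were separate, the rise was 1.41-fold in both lines, and the knockdown line held 64.4% of the control in medium and 64.3% with cytokines. The rise in the knockdown line lost its call without shRNA-*Ddx5* replicate 3 (log2 difference 0.27) or any of the shRNA-*Ddx5* libraries with cytokines (0.27, 0.27 and 0.26). *Spred2* lies at chr11:19874442-19974026 on the plus strand. The table divides it by a gene length of 37937 bases, 7.90 times the 4804 bases of its canonical transcript in GENCODE. Its level is therefore understated against other genes, and so are its log2 differences of FPKM + 1. Its folds between groups are not changed by that length.

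*Spred3* stayed under 1 FPKM. It had 86, 83 and 52 fragments in shRNA-NC cells in medium (0.701, 0.687 and 0.582 FPKM) and 28, 52 and 53 fragments with cytokines (0.282, 0.466 and 0.474 FPKM). The knockdown libraries had 0.480, 0.307 and 0.233 FPKM in medium and 0.335, 0.285 and 0.320 FPKM with cytokines. It was highest in the control line in medium, apart from the 3 other groups, which overlapped with each other, and no other inhibitor was highest in that group. *Spred3* lies at chr7:28857208-28869286 on the minus strand. *Spry4*, on chromosome 18, also has a long gene length in the table (10374 bases, 2.18 times its canonical transcript).

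By level per length, the order of the genes also changed with the group. In shRNA-NC cells in medium *Spred1*, *Dusp5* and *Dusp1* led at means of 11.5, 10.7 and 10.3 FPKM, with ranges that overlapped from each to the next. With cytokines *Dusp5* (49.3 ± 13.2 FPKM, SD, n = 3) and *Dusp6* (30.4 ± 4.95) led and did not overlap with each other. In the knockdown line *Spred1* (9.84 ± 1.40) and *Dusp1* (7.87 ± 1.31) overlapped at the head in medium, and with cytokines *Dusp1* (15.8 ± 1.47) led and did not overlap with *Spred1* (11 ± 0.390). The *Dusp5* of the control line with cytokines had the widest spread of these means. Replicate 1 of that group was the highest of its 3 libraries for *Dusp1*, *Dusp4*, *Dusp5*, *Dusp6*, *Spry2*, *Spry4* and *Spred1*. Without it the log2 difference of cytokines in the control line was 1.87 for *Dusp5*, 2.70 for *Dusp6*, 1.19 for *Dusp4*, 1.41 for *Spry2* and 0.38 for *Spred1*, and none of these lost its call.

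Across the comparisons the inhibitors can be counted against all genes tested. With cytokines in the control line 7 of the 8 tested inhibitors rose and none fell, where 18.6% of the 12368 genes rose and 15.2% fell (2303 and 1878 genes, or 1815 and 2368 with quantile normalization and 1850 and 2529 with scaling to the sum of fragments). In the knockdown line 3 rose (*Dusp1*, *Dusp6* and *Spred2*) and *Dusp5* fell, where 13.5% of genes rose and 13.5% fell (1671 and 1673 genes, or 1398 and 2183 with quantile normalization). The knockdown in medium raised *Spry1* and lowered 5 inhibitors (*Dusp1*, *Dusp4*, *Dusp5*, *Dusp6* and *Spred2*), where 25.3% of genes rose and 21.7% fell (3131 and 2686 genes, or 2480 and 3353 with scaling to the sum of fragments). The knockdown with cytokines raised *Dusp1* and lowered 6 inhibitors (*Dusp4*, *Dusp5*, *Dusp6*, *Spry2*, *Spred1* and *Spred2*), where 23.5% of genes rose and 22.1% fell (2906 and 2739 genes, or 2489 and 3126 with scaling to the sum of fragments). The median log2 difference of the tested inhibitors was 0.89 with cytokines in the control line and 0.05 in the knockdown line, beside 0.02 and 0.00 for all genes tested. Because the set was chosen by these contrasts, and *Spry2* was tested only through the group where it was high, nothing further was read from the counts.

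**Figure D3:**
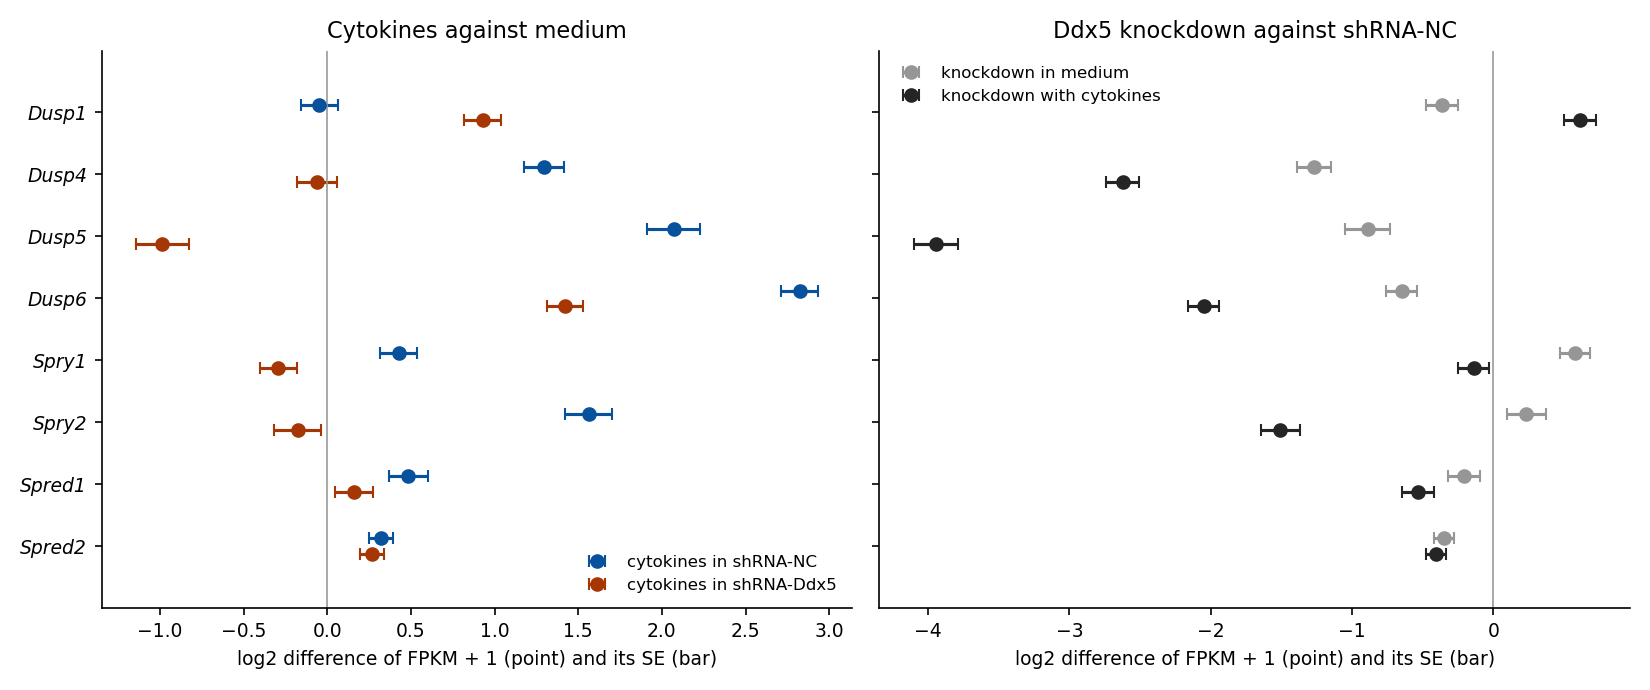
Log2 difference of FPKM + 1 (point) with its standard error (bar) for the 8 tested inhibitors, with cytokines against medium on the left and shRNA-*Ddx5* against shRNA-NC on the right. *Dusp5* moved from 2.07 in the control line to -0.99 in the knockdown line with cytokines, *Spred2* stayed at 0.32 and 0.27, and *Dusp1* lay near 0 in the control line and at 0.93 in the knockdown line.

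The difference between the 2 lines in their response to cytokines was also estimated, as the response in shRNA-*Ddx5* minus that in shRNA-NC cells. It was -3.06 (SE 0.22) for *Dusp5*, -1.74 (SE 0.20) for *Spry2*, -1.40 (SE 0.15) for *Dusp6*, -1.35 (SE 0.17) for *Dusp4* and -0.72 (SE 0.15) for *Spry1*. It was 0.98 (SE 0.16) for *Dusp1*. These 6 inhibitors passed the threshold, 1 up and 5 down, where 3.46% of the 12368 genes were up and 4.75% were down. The set was chosen by differences between these groups, and *Spry2* was tested only through the group where it was high. This count is therefore a description. For *Spred1* the difference between the lines was -0.33 (SE 0.16) and for *Spred2* -0.05 (SE 0.10), neither past the threshold. The value of *Spry1* missed the threshold without shRNA-*Ddx5* replicate 3 (-0.66) or without shRNA-*Ddx5* replicate 3 with cytokines (-0.68).

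The other phosphatases that act on MAP kinases were split. Of 6 such genes 5 were tested, and 4 rose with cytokines in the control line, among them *Dusp7* (log2 difference 0.52). In the knockdown line 2 rose and *Dusp7* fell (log2 difference -0.39). That fall was lost without shRNA-*Ddx5* replicate 2 (-0.41) or replicate 3 (-0.36) in medium, or without replicate 2 (-0.39) or replicate 3 (-0.31) with cytokines, and also with no filter on low values. *Dusp9*, an ERK phosphatase, had 5.51 ± 0.989 FPKM (SD, n = 3) in shRNA-NC cells in medium and 11.7 ± 1.39 with cytokines, and 2.89 ± 0.443 and 3.00 ± 0.445 in shRNA-*Ddx5* cells. It rose with cytokines in the control line only (log2 difference 0.97, adjusted p = 0.00031 by limma), and the difference between the lines passed (-0.92, adjusted p = 0.014). *Dusp16* and *Dusp8*, phosphatases with a preference for JNK and p38, went the other way. *Dusp16* rose from 5.94 to 11.3 FPKM in the knockdown line (log2 difference 0.83, adjusted p = 0.00012), and its values of 11.5 and 12.5 FPKM in the control line overlapped, with a difference between the lines of 0.73 (adjusted p = 0.012). *Dusp8* rose in both lines, 1.75-fold in the control and 2.50-fold in the knockdown, and was higher in the knockdown line with cytokines (log2 difference 0.64, adjusted p = 6.8e-05). Of the 9 tested atypical DUSPs, small phosphatases of broader use, 3 rose and 2 fell with cytokines in the control line and 2 rose and 3 fell in the knockdown line, *Dusp3* and *Dusp15* rising in both. *Dusp15* passed the filter only through the control line with cytokines, so that its place among the tested genes already required a difference.

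Most of the genes that ERK is known to switch on early rose with cytokines in the control line. Of 10 tested immediate-early genes 9 rose with cytokines in the control line (median log2 difference 1.74) and 6 in the knockdown line (0.85), and 7 fell with the knockdown in the presence of cytokines. *Fos* is counted in the 9 and in the 7. It passed the filter only through the control line with cytokines, so that its place among the tested genes already required a difference. *Egr1*, a transcription factor induced within minutes of ERK activation, had 3.33, 3.54 and 1.19 FPKM in shRNA-NC cells in medium and 68.1, 57.9 and 51.3 FPKM with cytokines. With the knockdown it had 1.5, 1.33 and 1.37 FPKM in medium and 2.38, 2.29 and 1.59 FPKM with cytokines. The 3 libraries of the control line with cytokines stood far above the other 9. The difference between the lines was -3.74 (SE 0.33, adjusted p = 0.00011). *Ier2* (-1.30, adjusted p = 0.0013) and *Myc* (-0.60, adjusted p = 0.013) differed in the same direction. *Junb* and *Ier3* rose strongly in both lines, by log2 differences of 2.66 and 3.33 in the control and 2.47 and 2.94 in the knockdown line, and for neither did the difference between the lines pass. Nor did it pass for *Fos*, *Fosl1*, *Fosl2*, *Jun* and *Srf*. *Jun*, counted in the 7, rose alike in both lines (1.21 in the control and 1.22 in the knockdown line). With the knockdown it was lower in medium (-1.43) and with cytokines (-1.41).

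Of 6 tested delayed targets of ERK 5 rose with cytokines in the control line. For the same 5 genes the response was lower in the knockdown line by the test of the difference itself. Among them *Ccnd1* and *Epha2* did not rise there (log2 differences -0.39 and -0.23, neither past the threshold). *Etv4* passed the filter only through libraries with cytokines. *Etv5*, an ETS factor induced by FGF signaling, rose 6.23-fold in the control line and 2.43-fold in the knockdown line (difference -1.15, adjusted p = 0.00081). *Epha2*, a receptor kinase, had 21.2, 19.3 and 17.8 FPKM in shRNA-NC cells in medium and 50.7, 49.8 and 55.9 FPKM with cytokines, and 23.3, 21 and 22.8 FPKM and 19.0, 19.2 and 18.4 FPKM in shRNA-*Ddx5* cells (difference -1.61, adjusted p = 3.5e-05). *Ccnd1*, the cyclin that drives entry into S phase, rose 2.51-fold in the control line and had 75.2% of its level in medium in the knockdown line (difference -1.67, adjusted p = 0.00057). The lists were chosen with earlier results of these libraries known, so their direction is no independent evidence.

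**Figure D4:**
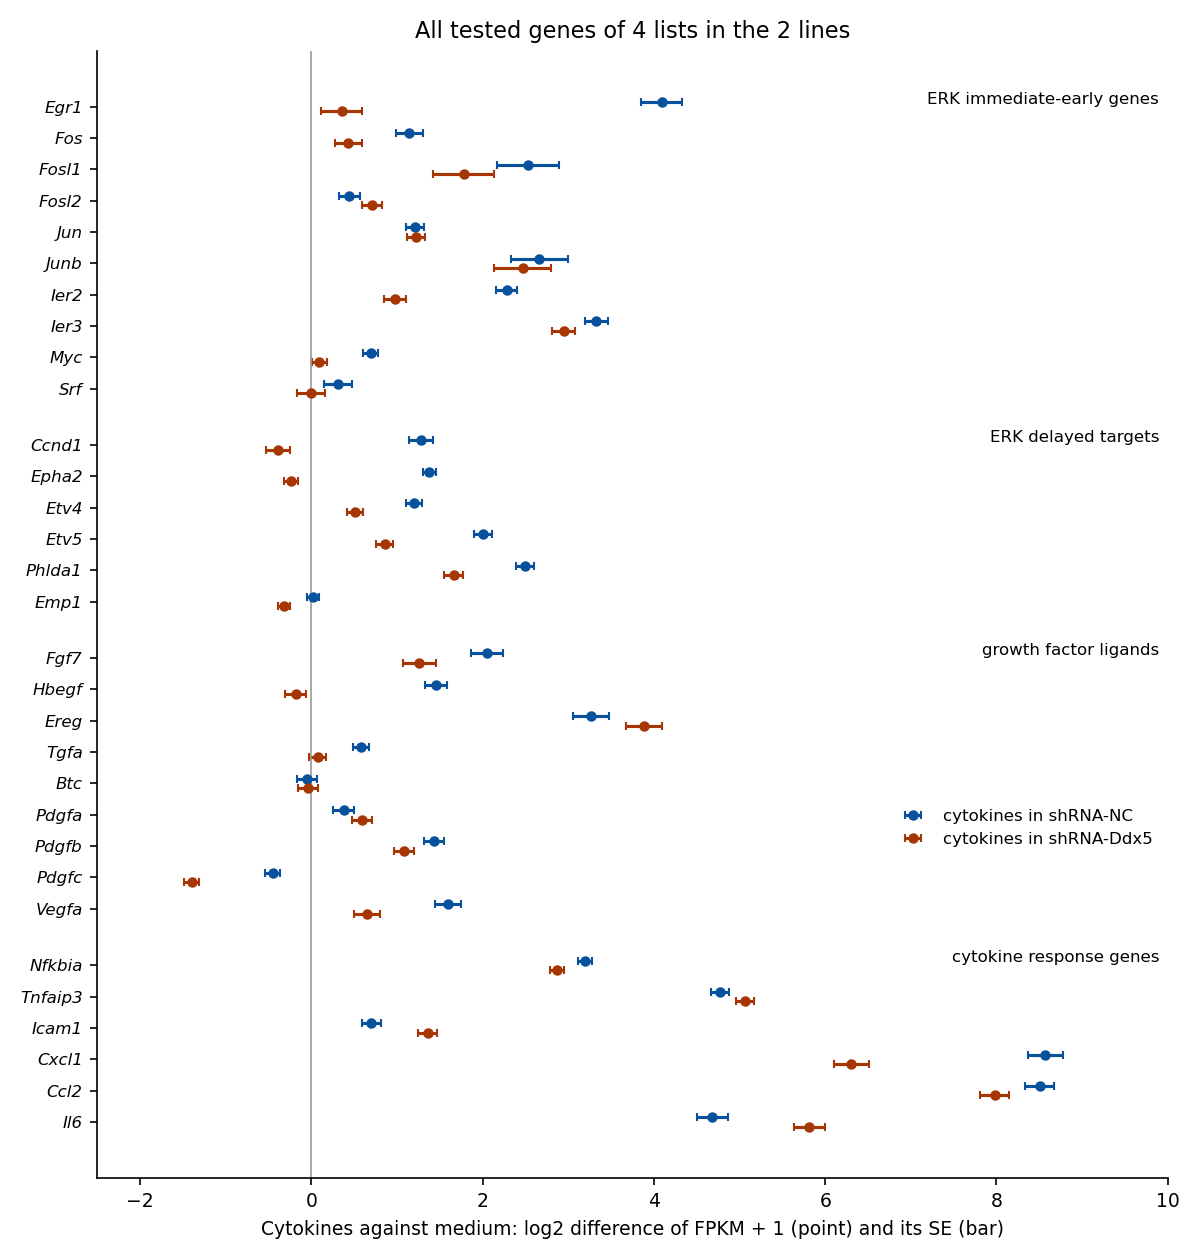
Log2 difference of FPKM + 1 with cytokines against medium (point) and its standard error (bar) for all tested genes of 4 lists, in shRNA-NC (blue) and shRNA-*Ddx5* (brown) cells. *Egr1* moved from 4.09 to 0.35, *Epha2* and *Hbegf* lost their rise, and *Tnfaip3* and *Ccl2* rose strongly in both lines.

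Ligands and receptors that feed the ERK chain moved in different directions. Of 9 tested growth factor ligands 7 rose with cytokines in the control line and 5 in the knockdown line, and with cytokines 8 were lower and *Ereg* was higher in the knockdown line. *Hbegf*, a ligand of the EGF receptor, had 1.21, 1.6 and 1.46 FPKM in shRNA-NC cells in medium and 6.68, 5.55 and 4.77 FPKM with cytokines, against 2.00, 1.28 and 1.68 FPKM and 1.30, 1.32 and 1.34 FPKM in shRNA-*Ddx5* cells. The difference between the lines was -1.64 (adjusted p = 0.00042). *Ereg*, another ligand of that receptor family, rose 40.1-fold in the control and 36.1-fold in the knockdown line (log2 differences of FPKM + 1 of 3.26 and 3.89). It passed the filter only through libraries with cytokines, so that its place among the tested genes already required a difference. Its folds rest on low levels in medium. *Egfr*, the receptor itself, had at most 9 fragments in a library. *Vegfa* was lower in the knockdown line with cytokines (25% of the control, adjusted p = 4.6e-06). Of 9 tested receptor tyrosine kinases 5 were higher and 4 lower in the knockdown line with cytokines. *Fgfr2*, a receptor for FGFs, was 5.14-fold higher in the knockdown line in medium (adjusted p = 1.5e-07), *Pdgfrb* was 2.62-fold higher with cytokines (adjusted p = 9.1e-05), and *Met*, the receptor for hepatocyte growth factor, was at 31.2% of the control with cytokines (adjusted p = 1.5e-05). The FGF receptors were split in medium. *Fgfr3* was also higher with the knockdown (log2 difference 0.76). *Fgfr1* was lower, at 34.5 to 37.2 FPKM in shRNA-NC and 20.5 to 21.9 FPKM in shRNA-*Ddx5* cells.

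Of 21 tested kinases and adaptors of the chain itself none differed between the lines in its response to cytokines by limma with Benjamini-Hochberg adjustment (6 at an unadjusted p under 0.05, and none with voom weights). With the knockdown in cytokines 2 were higher and 7 lower, among them the Ras activators *Sos1* (log2 difference -0.75, adjusted p = 0.0014) and *Sos2* (-0.89, adjusted p = 0.00014) lower and the Raf kinase *Araf* higher (0.88, adjusted p = 1.2e-05). Of 12 other tested inhibitors of Ras and ERK none was higher (1 at an unadjusted p under 0.05, and none with voom weights) and 7 were lower in the knockdown line with cytokines. *Errfi1*, a feedback inhibitor of the EGF receptor, had 2.28, 2.33 and 2.18 FPKM in shRNA-NC cells in medium and 35.9, 33.7 and 22.4 FPKM with cytokines, and 2.61, 2.61 and 2.73 FPKM and 7.08, 6.98 and 7.34 FPKM in shRNA-*Ddx5* cells. It rose in both lines, and less in the knockdown line (difference -2.09, adjusted p = 0.00015). *Dab2ip* and *Il17rd* were lower in the knockdown line in both media (log2 differences -0.95 and -0.74 in medium, -1.20 and -0.61 with cytokines) and did not pass for cytokines in either line. *Il17rd*, which is counted in the 7, passed the filter only through the control line. Its place among the tested genes thus already required a difference.

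The response to cytokines as such was present in both lines. All 6 cytokine response genes rose in both, with a median log2 difference of 4.73 in the control and 5.44 in the knockdown line. *Il6* and *Icam1* reached 1 FPKM only in libraries with cytokines, so that their place among the tested genes already required a difference. *Il6* had 0 fragments in every shRNA-NC library in medium, where the scale of FPKM + 1 understates its rise. The order of these medians was therefore not read. *Tnfaip3*, a target of NF-κB that limits it, rose 42.7-fold and 52.6-fold, and *Ccl2*, a chemokine for monocytes, reached 1018 FPKM in the control and 2129 FPKM in the knockdown line, from 1.82 and 7.58 FPKM in medium (log2 differences 8.51 and 7.98). *Cxcl1*, a chemokine for neutrophils, rose less in the knockdown line (log2 difference 6.30 against 8.57, difference -2.27, adjusted p = 0.00085), from a higher level in medium (25.2 against 4.17 FPKM). *Map3k8*, the kinase that relays IL-1 and TNF signals to MEK and ERK, had 0.478, 0.449 and 0.412 FPKM in shRNA-NC cells in medium and 1.22, 2.41 and 1.86 FPKM with cytokines, and 0.643, 0.565 and 0.485 FPKM and 3.70, 4.56 and 4.52 FPKM in shRNA-*Ddx5* cells. *Map3k8* too reached 1 FPKM only in libraries with cytokines, so that its place among the tested genes already required a difference. It rose in both lines and was 2.32-fold higher in the knockdown line with cytokines (adjusted p = 0.00033). The difference between the lines in its response was 0.80 (adjusted p = 0.031), and this call was lost with voom weights and without any of 7 libraries (0.76 to 0.82). Of 12 tested kinases of the JNK and p38 chains the p38 gene *Mapk11* was lower in the knockdown line in both media (29.6% and 40.0% of the control, adjusted p = 2.1e-06 and 9.4e-06).

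**Figure D5:**
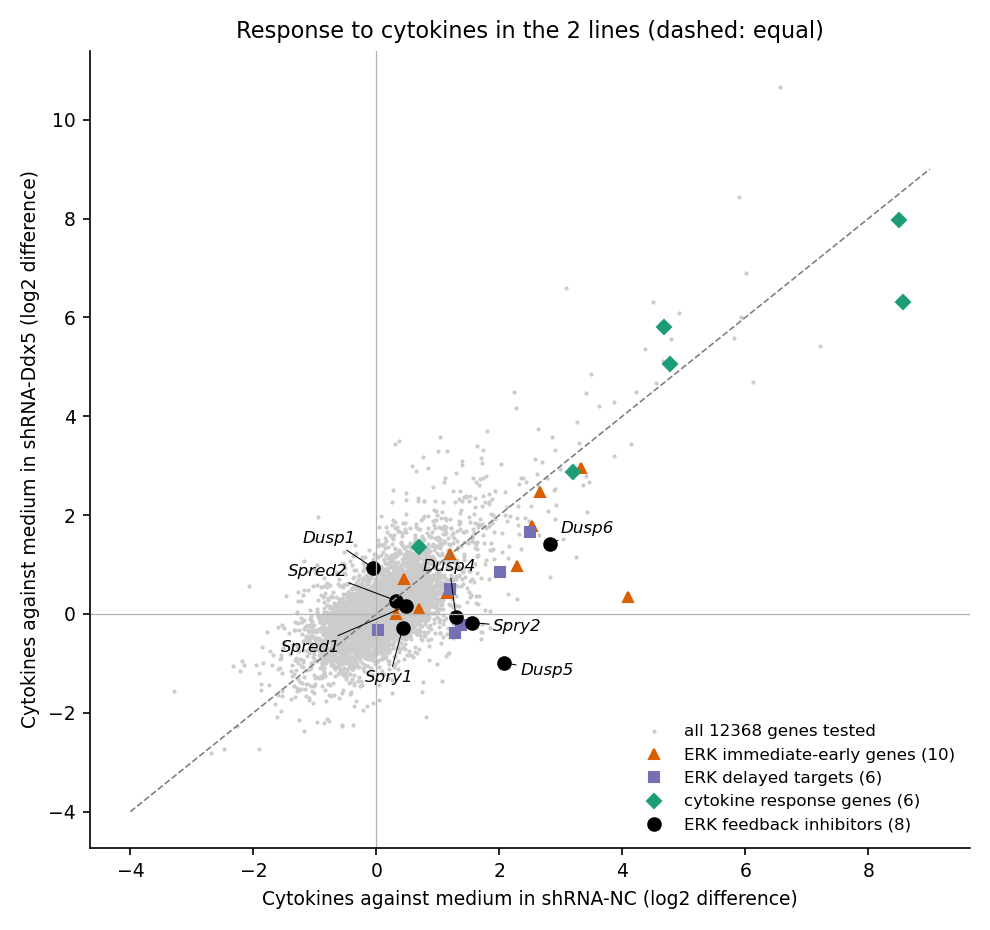
Log2 difference with cytokines against medium in shRNA-NC (x axis) and shRNA-*Ddx5* cells (y axis) for the 12368 genes tested (grey), the 8 tested inhibitors (black, named) and 3 lists, with a dashed line of equal response. The axes share no library. *Dusp5* lay at 2.07 and -0.99, *Dusp6* at 2.82 and 1.42 and *Dusp1* at -0.05 and 0.93, while the cytokine response genes lay on both sides of the line.

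Among the AU-rich element binding proteins, which control the decay of short-lived transcripts such as those of DUSPs, 5 of 6 rose with cytokines in the control line and 3 in the knockdown line, and none differed between the lines in that response (3 at an unadjusted p under 0.05, and none with voom weights). *Zfp36*, which speeds decay, rose in both lines (log2 difference 0.93 and 1.40). *Zfp36l2* was lower in the knockdown line in medium (-1.01, adjusted p = 0.00033) and with cytokines (-1.49, adjusted p = 2.2e-05).

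The genes whose levels ran most like those of the inhibitors over the 12 libraries were found by the root mean square difference of centered log2 values, for the 4 inhibitors with group means at least 1 log2 unit apart. *Spry2* ran most like *Hbegf* (0.13), *Mfsd2a* (0.16) and *Epha2* (0.20). *Dusp4* ran most like *Hmga2* (0.21), *Gprc5a* (0.23) and *Gpr137b* (0.31), and *Dusp5* most like *Gprc5a* (0.43), *Hmga2* (0.57) and *Sox4* (0.65). *Dusp6* ran most like *Slc7a11* (0.29), *Arhgap22* (0.30) and *Rnf19b* (0.31). *Hmga2*, a chromatin protein of growing cells, had 18 and 39.8 FPKM in the control line in medium and with cytokines, and 5.69 and 6.14 FPKM in the knockdown line. *Slc7a11*, the cystine transporter, had 4.05 and 24.0 FPKM in the control and 1.28 and 7.73 FPKM in the knockdown line. The neighbors of *Dusp4* and *Dusp5* were thus partly shared, and those of *Dusp6* and *Spry2* were others.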

How the data were processed

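The authors sequenced poly(A) RNA (1 µg, read over 150 nt from both ends) of 12 cultures, counted fragments on genes and deposited FPKM. The submitters' processing notes list HISAT2 2.0.5, featureCounts 1.5.0-p3 and DESeq2 1.20.0 and name mm10, but the table's coordinates follow GRCm39, and the methods give featureCounts 1.6.3. Whether counting used strand is not given in the sources used here, so antisense neighbors cannot be told apart from their genes. After multiplication by gene length, every deposited FPKM came to whole steps of a size fixed in each library (within 0.001), which gave the fragments and showed a scaling between libraries. The 3 replicates are described as biologically independent.

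Groups were taken from the labels. Genes with at least 1 FPKM in at least 3 libraries were tested as log2(FPKM + 1) with limma 3.58.1 in R 4.3.3 (4 group means, eBayes with trend, contrasts, Benjamini-Hochberg adjustment over 12368 genes, threshold 0.05). The model was tested on simulated data. Exact 95% intervals for fragment ratios cover counting error only, and a library at 3 fragments or fewer was taken as at the floor. Pathway genes were named by rule: from each of 11 lists, for each of 5 contrasts, up to 3 genes with the largest difference among those past the threshold with separate groups, and up to 3 similar genes for each inhibitor. The inhibitors and all lists were chosen with earlier results of these data known. Sequences came from RefSeq (GRCm38.p6), and transcript lengths from GENCODE vM39. Alternatives were a pseudocount of 0.1, other filters, quantile normalization, scaling to the sum of fragments, a replicate block, eBayes without trend, the 6 libraries of a contrast alone, voom weights and each library left out. Figures were drawn with matplotlib 3.10.9.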

Additional observations from a re-analysis of the deposited data

Results flagged for a closer look

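For 6 of the feedback inhibitors the response to cytokines differed between the lines by the interaction term of the fit, given as the response in shRNA-*Ddx5* minus that in shRNA-NC cells on the log2 scale. It was -3.06 for *Dusp5*, -1.74 for *Spry2*, -1.40 for *Dusp6*, -1.35 for *Dusp4*, -0.72 for *Spry1* and 0.98 for *Dusp1*. These genes were selected on contrasts of the same libraries, so the values are a description. *Dusp5* was the only one of the 8 tested inhibitors that rose in one line and fell in the other. Outside the set *Dusp7* also rose in the control line (0.52) and fell in the knockdown line (-0.39), a fall that depended on single libraries.

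By the same term the response of 23 named pathway genes differed. Among genes induced by ERK it was -3.74 for *Egr1*, -1.30 for *Ier2* and -0.60 for *Myc*, and -1.67 for *Ccnd1*, -1.61 for *Epha2* and -1.15 for *Etv5*. Among ligands and receptors it was -1.64 for *Hbegf*, -0.95 for *Pdgfc* and -0.95 for *Vegfa*, -1.40 for *Fgfr2*, 1.23 for *Pdgfrb* and 0.64 for *Pdgfra*. *Fgfr2* fell in both lines, from 23.5 to 4.49 FPKM in the knockdown and from 4.58 to 2.30 FPKM in the control line. Among other phosphatases it was -0.92 for *Dusp9*, -0.91 for *Dusp7*, 0.73 for *Dusp16*, -0.63 for *Dusp12* and -0.51 for *Dusp22*. For *Errfi1*, the feedback inhibitor of the EGF receptor, it was -2.09. Among kinases of the JNK and p38 chains it was -0.62 for *Map2k6* and 0.80 for *Map3k8*. Among cytokine response genes it was -2.27 for *Cxcl1*, 1.13 for *Il6* and 0.66 for *Icam1*. Leaving out a single library ended several of these calls. For *Vegfa* this happened without shRNA-NC replicate 2, shRNA-*Ddx5* replicate 3 or either of replicates 1 and 2 of shRNA-*Ddx5* with cytokines (-0.96 to -0.89). The call was lost without any of 6 libraries for *Dusp12* (-0.64 to -0.58), 7 for *Map3k8* (0.76 to 0.82), 7 for *Icam1* (0.58 to 0.68), 10 for *Dusp22* (-0.53 to -0.44) and 11 for *Pdgfra* (0.56 to 0.69), and for *Il6* without shRNA-*Ddx5* replicate 3 with cytokines (1.06). With a pseudocount of 0.1 the calls of *Dusp22*, *Icam1*, *Map2k6*, *Map3k8* and *Pdgfra* were lost, with voom weights those of *Dusp22*, *Icam1*, *Map3k8* and *Pdgfra*, with no filter those of *Dusp22*, *Icam1*, *Map3k8*, *Pdgfra* and *Vegfa*, and with scaling to the sum of fragments that of *Pdgfra*. *Pdgfra*, *Map3k8*, *Il6* and *Icam1* reached 1 FPKM only in libraries with cytokines, so that their place among the tested genes already required a difference. *Il6* was listed at 0 in all 3 shRNA-NC libraries in medium, and the sign of its value turned with a smaller pseudocount.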

How the results depend on the processing

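For the 8 tested inhibitors, 805 of 818 values under the alternatives kept both direction and side of the threshold, 10 lost and 1 gained a call, and *Dusp1* with cytokines in shRNA-NC cells turned sign without shRNA-NC replicate 3 (0.0057) and without replicate 3 of that line with cytokines (0.0014), within a range of -0.088 to 0.0057 over the libraries left out in turn. For the named pathway genes 3016 of 3146 values kept both and 127 lost a call. In both counts part of the agreement was fixed in advance. The estimate for a comparison of groups cannot change when a library of another group is left out. Nor can it change with other filters, the replicate block, eBayes without trend or the 6 libraries of the contrast alone. In those settings only the side of the threshold could move. *Emp1* turned sign with quantile normalization for the knockdown in medium (-0.090), and the interaction of *Il6* turned with a pseudocount of 0.1 (-0.86) and with voom weights (-2.75), where the cause was not tested. With at least 1 FPKM required in every library compared, 3 inhibitors passed for the knockdown in medium and 3 for the interaction, against 6 each, because 4 were then tested. Leaving out each library in turn gave 559 to 1123 genes for the interaction, against 1016, with the count moved by over 1.5 times without shRNA-NC replicate 2 (628), shRNA-*Ddx5* replicate 3 (600) and each shRNA-*Ddx5* library with cytokines (610, 632 and 559). Libraries of the same replicate number did not deviate together over the 4 groups (mean correlation -0.0450, against 0.0216 for other numbers), with means between pairs of groups from -0.270 (shRNA-NC with cytokines and shRNA-*Ddx5*) to 0.268 (shRNA-NC and shRNA-*Ddx5* in medium, single pairs 0.0425 to 0.448), so a pairing was not shown. With the replicate block 687 genes passed for the interaction, 674 of them also without it, and no count of inhibitors changed. Among named pathway genes the block ended the calls of *Dusp7* with cytokines in shRNA-*Ddx5*, of *Dusp22* and *Pdgfra* for the interaction, and of *Srf* and *Emp1* for the knockdown in medium. With 3 libraries per group and under 1 FPKM, *Spry4* and *Spred3* could not be tested.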
